A study of Mus musculus with 40 samples.

Results

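The STAT genes described here are Stat2 (ENSMUSG00000040033), Stat3 (ENSMUSG00000004040), Stat4 (ENSMUSG00000062939), Stat5a (ENSMUSG00000004043), Stat5b (ENSMUSG00000020919) and Stat6 (ENSMUSG00000002147), which encode signal transducers and activators of transcription. They were listed by symbol, and the list was chosen with earlier results of these data known. All 6 were found among the 57010 gene identifiers of the count table, and all 6 were among the 12522 genes kept by the filter on low counts over the 40 libraries. Transcripts were counted from their 3′ ends (QuantSeq FWD kit, Lexogen) in macrophages grown from mouse bone marrow with L929-conditioned medium, a source of the growth factor M-CSF. Both genotypes carried a loxP-flanked Otulin gene, which encodes a deubiquitinase of linear ubiquitin chains. WT cells were OtulinFL/FL without Cre, and KO cells were OtulinFL/FL LysMCreTg/WT, with Cre recombinase driven by the LysM promoter of myeloid cells. A group with Cre and an unfloxed Otulin gene is not among the samples, so loss of Otulin and presence of Cre cannot be told apart in any difference between KO and WT. Cells were left untreated (0 h) or exposed for 3, 6, 12 or 24 h to lipopolysaccharide (LPS), a bacterial cell wall component sensed by TLR4 (ultrapure, Salmonella minnesota, 500 ng/ml). Each of the 10 groups held 4 biological replicates. The sources used here do not give the age or sex of the mice or whether animals were pooled, so p-values measure the spread between these samples.

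STAT proteins wait in the cytoplasm until a cytokine receptor is engaged and its bound Janus kinases (JAKs) phosphorylate the receptor and then the STAT, which pairs with another STAT, enters the nucleus and binds DNA. In macrophages STAT2 acts with IRF9 downstream of type I interferon, STAT3 downstream of IL-10 and of receptors that use gp130, STAT5A and STAT5B downstream of GM-CSF and other CSF receptors, STAT6 downstream of IL-4 and IL-13, and STAT4 mainly downstream of IL-12 in T and NK cells. LPS makes macrophages secrete several of these cytokines, and proteins of the SOCS family are induced by STATs and shut the receptors off. The counts report transcript abundance only, not phosphorylation or protein.

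The libraries held between 3615155 and 6829303 counts (median 4471933), and at the median 1 count was worth 0.224 CPM (counts scaled to a common library total). The totals are scaled by TMM, edgeR's factor that sets most genes equal between libraries, and a 3′ tag counts a transcript once whatever its length. The 60 pairs of replicates differed by more than sampling noise (chi-square per degree of freedom 2.34 to 18.9). All 8 macrophage markers were present, at a summed 3746 to 7945 CPM, with Csf1r at 409 to 624 CPM. Markers of other cell types were uneven. Summed over all 40 libraries, the T cell genes Cd3e and Cd3g had 7 and 3 counts, but Lck had 676 and Cd28 16158. The NK cell genes Ncr1 and Klrk1 had 2 and 1886 counts, and the B cell genes Cd79a, Pax5, Ms4a1 and Cd79b had 1, 16, 37 and 218. The neutrophil genes Ly6g and Retnlg had 3 counts each, but S100a9 had 2301 and S100a8 4914. Otulin tags were lower in every KO than WT library at 3 h (31.4 to 33.5 against 36.4 to 47.5 CPM) and 6 h (29.0 to 33.5 against 35.7 to 42.3 CPM), and higher in every KO library at 24 h (45.2 to 51.7 against 27.6 to 37.1 CPM). At 0 and 12 h the genotypes overlapped. The log2 difference KO minus WT was −0.41 ± 0.098 at 3 h (SE; edgeR adjusted p = 0.0564), −0.29 ± 0.11 at 6 h (adjusted p = 0.291) and 0.59 ± 0.11 at 24 h (adjusted p = 0.0704). The value at 3 h passed the test without WT replicate 4 (adjusted p = 0.0198), and that at 24 h passed it by DESeq2 (adjusted p = 0.00482). The sources used here do not name the deleted exons, so a 3′ tag does not check the genotype. In bulk RNA, fewer cells of a type and less RNA per cell cannot be told apart.

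After LPS the STAT genes followed different time courses in both genotypes. Stat2 reached the largest fold change of the 6 and was still high at 24 h, Stat3 rose to a maximum at 6 h and then declined, and Stat5a rose as a pulse at 3 h that was gone by 24 h. Stat5b rose modestly, Stat6 moved little, and Stat4 stayed near the limit of measurement. No STAT gene differed between KO and WT at any time by the test used.

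**Figure D1:**
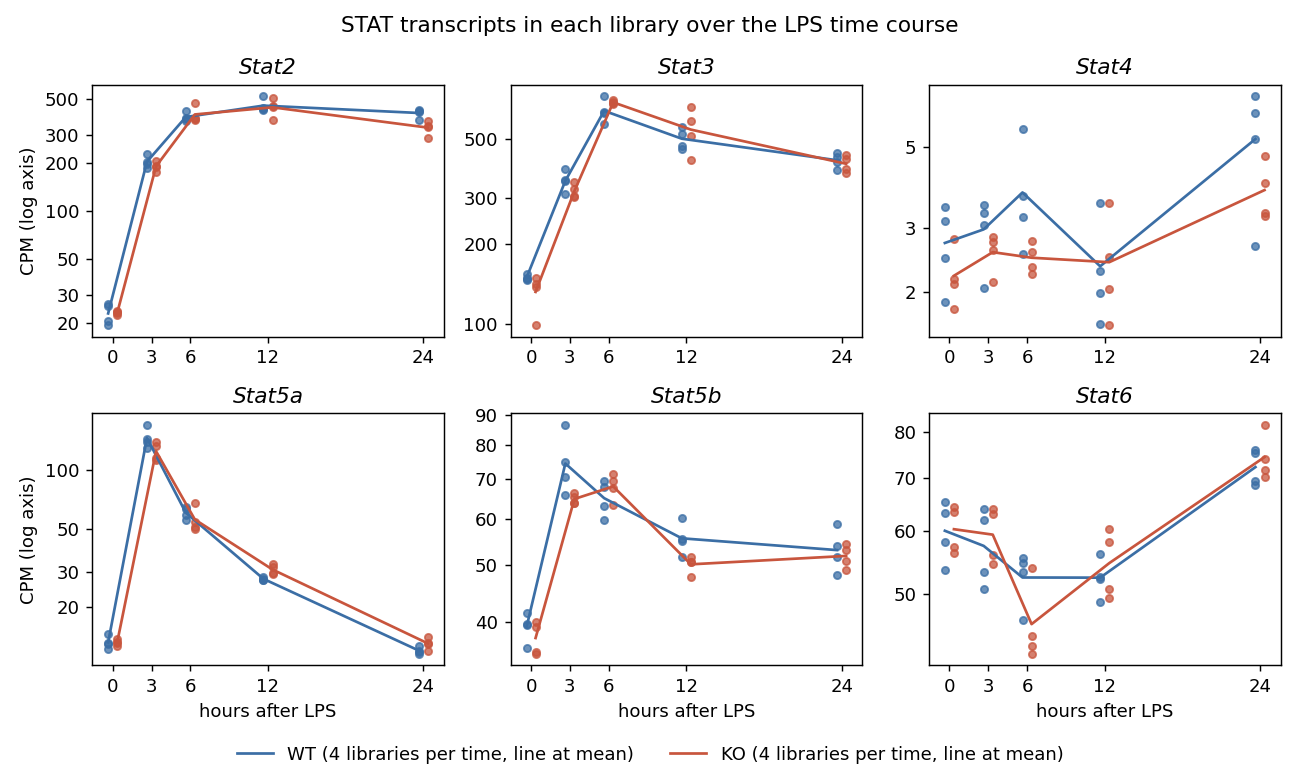
CPM (log axis, scaled separately in each panel) of the 6 STAT genes against hours after LPS. Each point is 1 library (4 WT in blue and 4 KO in red at each time) and the lines join group means. Stat2 climbs from about 23.0 CPM to a plateau, Stat5a peaks at 3 h and returns to its level at 0 h, and the points of both genotypes lie close together.

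The promoters of the 3 genes with the largest changes are shown because those genes shared a stimulus and differed in time course. Each window holds 250 bases before and 50 bases after a RefSeq start site (GRCm38.p6), 5′ to 3′ on the gene's strand. Capitals in Stat2 mark GAAANNGAAA, read here on the opposite strand as TTTCAGTTTC, and TTCNNNNGAA. Capitals in Stat5a mark a match to the NF-kB consensus, and Stat3 has none of the motifs searched.
Stat2, chr10:128270248-128270547, plus strand: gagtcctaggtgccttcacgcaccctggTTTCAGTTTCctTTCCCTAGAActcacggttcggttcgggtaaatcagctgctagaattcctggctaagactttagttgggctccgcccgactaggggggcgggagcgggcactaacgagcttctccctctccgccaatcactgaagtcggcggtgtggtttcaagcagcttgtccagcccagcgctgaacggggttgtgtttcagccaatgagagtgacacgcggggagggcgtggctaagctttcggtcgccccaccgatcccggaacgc
Stat5a, chr11:100860234-100860533, plus strand, the downstream of its 2 windows: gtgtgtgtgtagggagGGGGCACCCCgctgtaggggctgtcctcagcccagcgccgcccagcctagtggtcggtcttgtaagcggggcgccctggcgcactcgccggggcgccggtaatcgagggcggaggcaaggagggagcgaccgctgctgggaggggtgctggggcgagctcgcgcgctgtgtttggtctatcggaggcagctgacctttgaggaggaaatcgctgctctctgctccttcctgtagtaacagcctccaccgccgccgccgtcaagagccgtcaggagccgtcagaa
Stat3, chr11:100939491-100939790, minus strand: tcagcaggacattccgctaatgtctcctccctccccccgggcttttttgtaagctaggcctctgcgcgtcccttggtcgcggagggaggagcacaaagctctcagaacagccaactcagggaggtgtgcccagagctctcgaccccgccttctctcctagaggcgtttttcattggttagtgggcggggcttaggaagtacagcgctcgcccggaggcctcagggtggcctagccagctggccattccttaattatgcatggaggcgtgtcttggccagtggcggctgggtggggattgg
GAAANNGAAA is the core of the element bound by the STAT2 and IRF9 complex, TTCNNNGAA the palindrome bound by most STAT dimers, and TTCNNNNGAA the wider spacing preferred by STAT6. On both strands, GAAANNGAAA occurred in 3.44% of all 32851 RefSeq promoter windows, TTCNNNNGAA in 6.95%, TTCNNNGAA in 8.30% and the NF-kB consensus in 4.51%. The 6 STAT genes had 9 windows, all matched by symbol. In Stat2, GAAANNGAAA began at window base 29 and TTCNNNNGAA at window base 41, so the 2 matches did not overlap. GAAANNGAAA was also found in 1 of the 2 Stat4 windows, although Stat4 was low in these cells. TTCNNNGAA was in none of the 9 windows, which says only that these letters are absent from those bases.

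Stat2, the partner of IRF9 in the interferon-activated complex, rose about 9-fold within 3 h and about 20-fold by 12 h in WT. WT replicates 1 to 4 held 25.7, 26.2, 19.4 and 20.6 CPM before LPS, then 188, 204, 197 and 227 CPM at 3 h, then 366, 385, 379 and 422 CPM at 6 h. They reached 429, 523, 444 and 434 CPM by 12 h, with 373, 430, 423 and 419 CPM left by 24 h. Every LPS-treated WT library lay above every untreated one, and the libraries at 3 h lay below all later ones. The KO libraries traced a like course, with 23.0, 23.3, 23.8 and 22.4 CPM at 0 h, 205, 191, 190 and 177 CPM at 3 h, and 376, 385, 374 and 477 CPM at 6 h. By 12 h they held 456, 451, 508 and 371 CPM, and by 24 h 342, 368, 338 and 286 CPM, where all 4 were below the WT libraries. The log2 fold change against 0 h in WT was 3.14 ± 0.099 at 3 h (SE, 4 against 4 libraries; edgeR adjusted p = 1.16e-19), 4.07 ± 0.10 at 6 h, 4.31 ± 0.10 at 12 h (adjusted p = 2.76e-22) and 4.16 ± 0.10 at 24 h. In KO it was 3.03 ± 0.11, 4.10 ± 0.12, 4.25 ± 0.12 and 3.85 ± 0.12 at the same times (highest edgeR adjusted p = 3.25e-17). At 24 h in WT, 1.95% of tested genes had a larger log2 fold change than Stat2.

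Between neighbouring times, Stat2 still rose from 3 to 6 h by 0.93 ± 0.085 log2 in WT (edgeR adjusted p = 1.88e-09) and by 1.07 ± 0.10 in KO (adjusted p = 4.94e-09). The further rise from 6 to 12 h in WT, 0.24 ± 0.083 (adjusted p = 0.0214), was lost without WT replicate 2 (0.17, adjusted p = 0.170) or replicate 3 (0.24, adjusted p = 0.0768). In KO that step was 0.15 ± 0.099 (adjusted p = 0.229), and it passed the test without KO replicate 4 (0.33, adjusted p = 0.00186). From 12 to 24 h Stat2 fell by 0.41 ± 0.099 log2 in KO (adjusted p = 0.0023), whereas the WT step was −0.15 ± 0.083 (adjusted p = 0.158). The difference between the genotypes in this step was not tested.

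Stat3, which carries IL-6 and IL-10 family signals, was the most abundant STAT transcript of all 6 in each of the 10 groups by mean CPM. Its WT replicates held 150, 154, 148 and 147 CPM before LPS, then 311, 348, 346 and 383 CPM at 3 h, then 569, 632, 625 and 722 CPM at 6 h. By 12 h they were down to 468, 556, 458 and 520 CPM, and by 24 h to 381, 426, 410 and 443 CPM. The libraries at 6 h were above those of every other time, and those at 24 h remained above all untreated ones. In KO the replicates held 99.3, 139, 142 and 150 CPM before LPS, 342, 323, 301 and 305 CPM at 3 h, and 675, 680, 686 and 700 CPM at 6 h. They spread from 415 to 656 CPM at 12 h and lay between 371 and 434 CPM at 24 h. KO replicate 1 was the lowest untreated library of either genotype. The log2 fold change against 0 h in WT was 1.21 ± 0.081 at 3 h (SE; edgeR adjusted p = 1.05e-12), 2.08 ± 0.082 at 6 h, 1.73 ± 0.081 at 12 h and 1.47 ± 0.081 at 24 h (adjusted p = 1.6e-14). In KO the values were 1.25 ± 0.12, 2.35 ± 0.12, 2.02 ± 0.12 and 1.60 ± 0.12 (highest edgeR adjusted p = 4.12e-09).

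The decline of Stat3 after 6 h was seen in both genotypes, at −0.35 ± 0.078 log2 from 6 to 12 h in WT (edgeR adjusted p = 0.000726) and −0.34 ± 0.12 in KO (adjusted p = 0.0221). From 12 to 24 h it was −0.27 ± 0.078 in WT (adjusted p = 0.00854) and −0.41 ± 0.12 in KO (adjusted p = 0.00788). Some of these calls were lost when a replicate number was left out at every time, which does not show the part of any single library. The KO step to 12 h was lost without KO replicate 2 (adjusted p = 0.0885) or 4 (adjusted p = 0.137), the KO step to 24 h without KO replicate 3 (adjusted p = 0.0778), and the WT step to 24 h without WT replicate 2 (adjusted p = 0.10). The annotated 3′ ends of Stat3 and Stat5a lie on opposite strands and overlap by 72 bases (GENCODE vM21), and the sources used here do not say which strand was counted, so tags inside the overlap cannot be told apart.

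Stat5a, which carries CSF receptor signals together with the closely related Stat5b, was the STAT gene with the largest rise at 3 h and the shortest. Its WT replicates held 13.1, 12.9, 14.5 and 12.2 CPM before LPS, then 138, 129, 143 and 169 CPM at 3 h. By 6 h they were down to 55.2, 62.7, 58.9 and 64.2 CPM, by 12 h to 27.5, 28.5, 27.3 and 27.6 CPM, and by 24 h to 12.6, 11.8, 11.9 and 11.5 CPM. WT libraries of neighbouring times did not overlap, and those at 24 h overlapped the untreated ones through a single library, replicate 1. In KO the replicates held 13.7, 13.1, 13.2 and 12.6 CPM before LPS, 138, 112, 115 and 131 CPM at 3 h, and 51.0, 49.6, 54.3 and 67.6 CPM at 6 h. By 12 h they were at 31.9, 33.0, 29.6 and 29.3 CPM, and by 24 h at 13.0, 14.0, 11.9 and 13.1 CPM. In WT the log2 fold change against 0 h was 3.45 ± 0.091 at 3 h (SE; edgeR adjusted p = 3.76e-21), 2.19 ± 0.095 at 6 h, 1.07 ± 0.10 at 12 h (adjusted p = 6.18e-10) and −0.14 ± 0.11 at 24 h (adjusted p = 0.303). In KO it was 3.22 ± 0.11, 2.06 ± 0.11, 1.22 ± 0.11 and −0.02 ± 0.12, the last with an edgeR adjusted p of 0.897. Each step down after 3 h passed the test in both genotypes, by 1.27, 1.12 and 1.21 log2 in WT and by 1.16, 0.84 and 1.24 log2 in KO (highest edgeR adjusted p = 6.65e-07).

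Stat5b, with 36.1 to 41.3 CPM in untreated WT and 35.3 to 40.03 CPM in untreated KO libraries, rose less and fell back only in part. The WT replicates held 70.5, 65.9, 74.8 and 86.7 CPM at 3 h, and later 48.0, 51.5, 53.8 and 58.7 CPM at 24 h, all above the untreated libraries. The KO replicates held 63.7, 66.4, 63.7 and 65.4 CPM at 3 h, and later 49.0, 54.4, 50.8 and 53.0 CPM at 24 h. The log2 fold change in WT was 0.92 ± 0.088 at 3 h (SE; edgeR adjusted p = 1.49e-09), 0.72 ± 0.090 at 6 h, 0.50 ± 0.090 at 12 h and 0.43 ± 0.090 at 24 h (adjusted p = 0.000128). In KO it was 0.77 ± 0.079, 0.84 ± 0.080, 0.40 ± 0.081 and 0.46 ± 0.080 (highest edgeR adjusted p = 0.000122). Library totals used without TMM factors, a setting added after the data had been seen, ended the calls at 12 and 24 h in both genotypes (0.10 and 0.13 log2 in WT, −0.03 and 0.16 in KO). From 6 to 12 h Stat5b fell by 0.44 ± 0.080 log2 in KO (adjusted p = 8.93e-05) and by 0.22 ± 0.090 in WT (adjusted p = 0.0442). The WT step was lost without WT replicate 1 (adjusted p = 0.235), 2 (adjusted p = 0.0756) or 3 (adjusted p = 0.222).

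The count ratio of Stat5a to Stat5b, taken within each library and therefore free of library scaling, reversed at 3 h. It was 0.338 ± 0.0428 in WT and 0.353 ± 0.0326 in KO at 0 h (SD, n = 4), and 1.95 ± 0.0189 and 1.92 ± 0.213 at 3 h. It was 0.933 ± 0.120 in WT and 0.816 ± 0.0917 in KO at 6 h, and 0.501 ± 0.0321 and 0.617 ± 0.0277 at 12 h. At 24 h it was 0.227 ± 0.0273 in WT and 0.251 ± 0.0128 in KO, below its level before LPS, and only at 12 h did the libraries of the genotypes not overlap. The ratio was chosen after its values were seen and is given without a test.

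**Figure D2:**
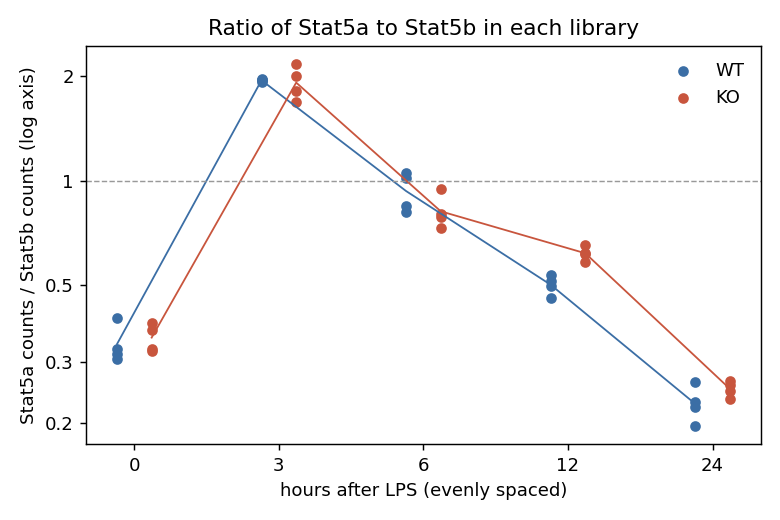
Ratio of Stat5a counts to Stat5b counts (log axis) against hours after LPS (evenly spaced), with 1 point per library, WT in blue and KO in red, lines through group means and a dashed line at a ratio of 1. All 8 libraries at 3 h lie above 1, between 1.69 and 2.17, and all 8 at 24 h lie between 0.196 and 0.265.

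Stat6, the IL-4 and IL-13 factor, was the next most abundant STAT transcript after Stat3 before LPS by mean CPM, and its changes were small. Its WT replicates held 58.0, 65.2, 53.6 and 63.3 CPM before LPS, 54.6, 53.3, 46.4 and 55.4 CPM at 6 h and 75.8, 75.1, 69.3 and 68.6 CPM at 24 h. The KO replicates held 56.2, 57.3, 64.3 and 63.4 CPM before LPS, 53.9, 42.9, 44.2 and 42.0 CPM at 6 h and 71.6, 73.9, 81.6 and 70.2 CPM at 24 h. In both genotypes the libraries at 24 h lay above all untreated ones. At 3 h the log2 fold change was −0.06 ± 0.086 in WT (SE; edgeR adjusted p = 0.584) and −0.03 ± 0.098 in KO (adjusted p = 0.832). At 6 h it was −0.41 ± 0.10 in KO (adjusted p = 0.00114), and in WT −0.20 ± 0.088, barely past the threshold (adjusted p = 0.0499). At 24 h it was 0.26 ± 0.085 in WT (adjusted p = 0.00768) and 0.30 ± 0.097 in KO (adjusted p = 0.00812). The step from 12 to 24 h was 0.47 ± 0.088 in WT (adjusted p = 0.000149) and 0.46 ± 0.099 in KO (adjusted p = 0.000782).

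When each replicate number was left out in turn at every time, the KO calls of Stat6 at 6 h (highest adjusted p = 0.0259) and 24 h (0.0461) held. So did the steps from 12 to 24 h in WT (0.00391) and KO (0.0249). Other Stat6 calls did not. The WT call at 6 h was lost without WT replicate 1, 2, 3 or 4 (adjusted p = 0.0566, 0.310, 0.0822 and 0.101). The WT value at 12 h, −0.20 ± 0.088 (edgeR adjusted p = 0.0419), was lost without replicate 2, 3 or 4 (adjusted p = 0.351, 0.0563 and 0.121), and the WT rise at 24 h without replicate 1 (adjusted p = 0.0561). A KO step from 6 to 12 h of 0.25 ± 0.10 (edgeR adjusted p = 0.0499) was lost without KO replicate 1, 2, 3 or 4 (adjusted p = 0.0620, 0.456, 0.0957 and 0.0788). Without TMM factors Stat6 was lower at 3 h (−0.42 log2 in WT, adjusted p = 0.000318, and −0.37 in KO, adjusted p = 0.00398) and no longer higher at 24 h (−0.04 in WT and 0.01 in KO). The 3′ end of Stat6 overlaps that of Nab2, on the opposite strand, by 40 bases. Nab2 lay between 7.77 ± 0.655 CPM at 3 h and 22.5 ± 5.71 CPM at 6 h in WT (SD, n = 4), and its part in the Stat6 counts was not tested.

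Stat4, the IL-12 factor of T and NK cells, was the least abundant STAT transcript of the 6 in each group, with 6 to 34 counts in a library and 36 to 102 counts in a group. Its WT replicates held 3.14, 2.47, 3.42 and 1.87 CPM before LPS, and later 6.89, 2.67, 5.27 and 6.22 CPM at 24 h, and the groups overlapped through replicate 2. The KO replicates held 1.80, 2.11, 2.79 and 2.17 CPM before LPS, and later 3.29, 3.99, 3.24 and 4.71 CPM at 24 h, with no overlap. At 24 h the log2 fold change was 0.93 ± 0.29 in WT (SE; edgeR adjusted p = 0.00553) and 0.79 ± 0.25 in KO (adjusted p = 0.00868), and at 3, 6 and 12 h Stat4 did not pass the test in either genotype. The rise was lost without WT replicate 4 (adjusted p = 0.0537) or KO replicate 4 (adjusted p = 0.0779), and without TMM factors (0.63 log2, adjusted p = 0.0511, in WT and 0.49, adjusted p = 0.0906, in KO). From 12 to 24 h it was 1.16 ± 0.31 in WT (adjusted p = 0.00473) and 0.69 ± 0.26 in KO (adjusted p = 0.0444), the latter lost without KO replicate 1 (adjusted p = 0.0934), 2 (adjusted p = 0.280) or 4 (adjusted p = 0.267). T cell markers summed to 145 to 169 CPM at 0 h and 36.6 to 47.3 CPM at 24 h in WT, led by Cd28 (16.0 to 169 CPM over all libraries). Cd3e and Cd3g had the few counts given above. NK cell markers summed to 0.990 to 1.64 CPM at 0 h and 9.59 to 11.6 CPM at 24 h in WT, led by Klrk1 (0.186 to 24.4 CPM over all libraries), while Ncr1 had 2 counts in all.

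Among all genes, LPS called 54.6%, 68.1%, 68.2% and 69.9% of the 12151 tested in WT at 3, 6, 12 and 24 h, and 4, 5, 5 and 5 of the 6 STAT genes. In KO it called 48.6%, 64.7%, 64.8% and 65.8% of 12037 genes and 4, 5, 4 and 5 STAT genes. These shares are near the background, so that a STAT gene passed the test is no result about the family, and its size and timing carry the description. At 3 h in WT the 4 called STAT genes were all higher, against 26.6% of all genes higher and 28% lower, and the median log2 fold change was 1.06 over the 6 genes and −0.05 over all genes. At 6 h 4 were higher and 1, Stat6, lower, against 31% and 37.1% of all genes, and at 12 h again 4 were higher and Stat6 lower, against 32.3% and 35.9%. At 24 h 5 were higher and 0 lower, against 34.5% and 35.4% of all genes, with medians of 0.68 and −0.02. In KO Stat6 was the STAT gene called lower at 6 h, and none of the 6 was called lower at 3, 12 or 24 h. For the steps from 3 to 6, 6 to 12 and 12 to 24 h, 42.3%, 45.6% and 39.6% of genes were called in WT and 40.6%, 44.8% and 36.9% in KO, with 3, 4 and 4 STAT genes in WT and 4, 4 and 5 in KO.

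Scaling matters for these shares. Without TMM factors the median of all genes moved by −0.36, −0.50, −0.40 and −0.30 log2 in WT and by −0.34, −0.55, −0.42 and −0.30 in KO at 3, 6, 12 and 24 h. The calls in WT at 3 h then split into 1863 higher and 6893 lower in place of 3235 and 3405, and at 24 h into 2760 and 5977 in place of 4193 and 4296. In KO they split into 1673 and 6201 in place of 2756 and 3097 at 3 h, and into 2536 and 5650 in place of 3944 and 3973 at 24 h. All changes here are therefore relative to the bulk of genes. Stat2 and Stat3 passed the test as higher against 0 h at all 4 times in both genotypes under either scaling, and Stat5a did so at 3, 6 and 12 h. At 24 h Stat5a was lower without TMM factors (−0.44 log2 in WT, adjusted p = 0.000716, and −0.32 in KO, adjusted p = 0.0234).

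The order of the 6 transcripts changed with time. Before LPS the order by mean CPM was Stat3, Stat6, Stat5b, Stat2, Stat5a and Stat4 in both genotypes, with no overlap between neighbours. At 3 h in WT it was Stat3, Stat2, Stat5a, Stat5b, Stat6 and Stat4, again with no overlap, and the KO order was the same with Stat5b and Stat6 overlapping. At 6 h Stat5b and Stat5a overlapped in both genotypes. At 12 h Stat3 and Stat2 overlapped in both, and at 24 h they overlapped in WT, at means of 415 and 411 CPM, but not in KO, at 402 and 333.4 CPM. Together the 6 genes summed to 288 ± 10.7 CPM at 0 h in WT (SD, n = 4) and to 831 ± 64.0, 1207 ± 89.1, 1096 ± 85.2 and 969 ± 49.4 CPM at 3, 6, 12 and 24 h. In KO the sums were 269 ± 27.2, 759 ± 37.9, 1260 ± 67.1, 1126 ± 161 and 879 ± 64.4 CPM.

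Within that sum the share of Stat2 grew from 7.96% to 42.5% in WT and from 8.68% to 37.9% in KO between 0 and 24 h. The share of Stat3 stayed between 41.8% and 54.5% in all 10 groups. Stat6 shrank from 20.8% to 4.35% at 6 h in WT although its own level changed little, and Stat5a held 17.4% in WT and 16.3% in KO at 3 h against 1.24% and 1.49% at 24 h. Across the 10 group means of log2 CPM, which share libraries and the time course, Pearson's r was 0.95 between Stat2 and Stat3, 0.84 between Stat5a and Stat5b, 0.33 between Stat2 and Stat5a and −0.38 between Stat3 and Stat6.

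**Figure D3:**
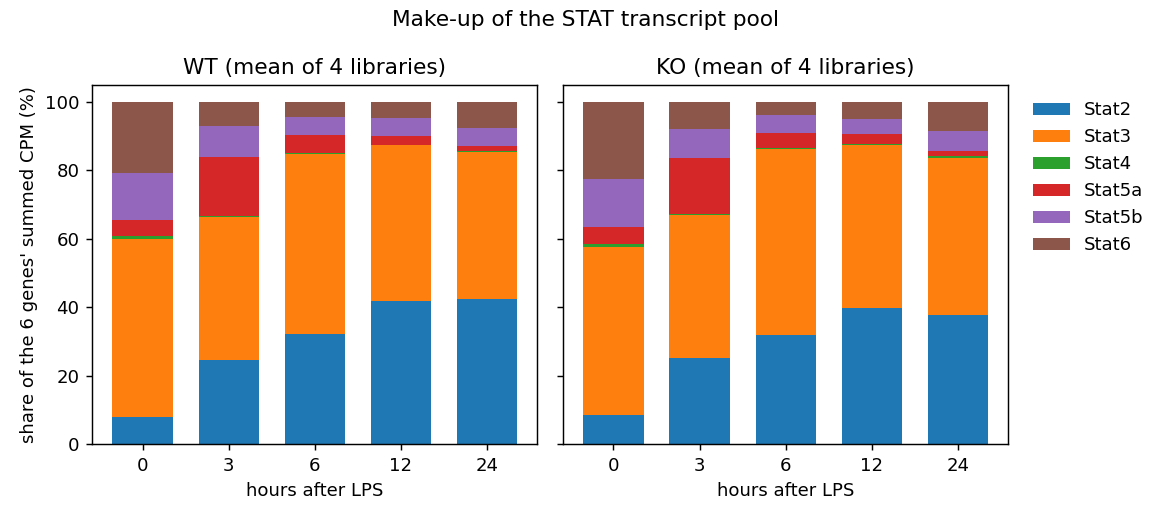
Mean share of each STAT gene in the summed CPM of the 6 genes (%, stacked bars, 4 libraries per bar) against hours after LPS, WT on the left and KO on the right. Stat2 grows from 7.96% to 42.5% in WT, and Stat5a is wide only at 3 h (17.4% in WT and 16.3% in KO).

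The genes whose 10 group means were most like those of each STAT gene were ranked by Pearson's r among 9071 candidates, as a description. Stat2 was closest to Uba7 (r = 0.998), the enzyme that activates ISG15, then to Ifi214, Zbp1 (a sensor of Z-form nucleic acid), Ddx60 and Ifi209. Stat3 was closest to Nub1 (r = 0.995), then to Crybg1, Ist1, Ascc3 and Il18, a cytokine of the IL-1 family. Stat5a was closest to Adamts4 (r = 0.993), a secreted protease, then to Mark2, Trip10, Wdr59 and Nlrp3, the inflammasome sensor. Stat5b was closest to Tab2 (r = 0.983), an adaptor of the kinase TAK1, then to Ktn1, Btbd7, Lcp2 and Tagap. Stat6 was closest to Slc2a8 (r = 0.967), a sugar transporter, then to Faf1, Acbd5, Eif4a2 and Mpst. Stat4 had the lowest leading value, with Slc43a3 (r = 0.913), then N4bp2l2, Slc4a1ap, Chuk (a kinase of the NF-kB pathway) and Iqcb1.

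The shares of all genes called by LPS, 54.6% at 3 h and 69.9% at 24 h in WT and 48.6% and 65.8% in KO, also stand behind every list count that follows. Upstream of the STATs, the 4 JAK kinases rose in WT and in KO at both 3 and 24 h, when 26.6% and 34.5% of all WT genes were higher. Jak2, which serves IFN-γ, GM-CSF and IL-12 receptors, went from 30.0 ± 1.52 CPM at 0 h to 431 ± 17.1 CPM at 6 h in WT (SD, n = 4). Its log2 fold change in WT was 3.36 ± 0.090 at 3 h (SE; edgeR adjusted p = 4.67e-21) and 2.43 ± 0.089 at 24 h, whereas that of Jak1 was 0.55 ± 0.078 and 0.68 ± 0.078. Tyk2, the kinase bound to Ifnar1, rose by 0.88 ± 0.088 and 1.41 ± 0.086 log2. All 5 genes of the list of interferon receptors and Irf9 rose in WT at 3 h and at 24 h, while at 6 h 4 rose and 1 fell and at 12 h 4 rose. Irf9, the DNA-binding partner of STAT2, rose by 2.04 ± 0.074 at 3 h (edgeR adjusted p = 1.96e-18) and 1.92 ± 0.073 at 24 h, and Ifnar1, a type I interferon receptor chain, by 1.46 ± 0.084 and 1.93 ± 0.082. Ifngr1, an interferon γ receptor chain, rose by 0.43 log2 at 3 h in WT, a call lost without TMM factors (0.07, adjusted p = 0.511).

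Receptors that feed STAT3 moved in both directions. Of the 8 genes listed under gp130 and IL-10 family receptors, which also held Il21r, 6 passed the filter. In WT 3 h of LPS gave 1 that rose, 2 that fell and 3 that did not pass the test, against 3 up and 2 down after 24 h. Both counts of called genes, 3 of 6 and 5 of 6, are close to the shares of all genes called (54.6% and 69.9%). Il10ra, the ligand-binding chain for IL-10, rose by 1.79 ± 0.11 log2 at 3 h (SE; edgeR adjusted p = 7.64e-14), while Il6ra, the IL-6 receptor, fell by 1.37 ± 0.12 at 3 h and by 1.24 ± 0.11 at 24 h. Il21r fell by 1.48 ± 0.13 at 3 h and rose by 0.60 ± 0.12 at 24 h. Of the 12 genes listed under IL-4, IL-12 and CSF receptors, which also held Il2ra, Il15ra and Il7r, LPS raised 8 and lowered 1 in WT by 3 h. By 24 h it raised 10 and lowered 2. Of all genes 26.6% were higher and 28% lower at 3 h, and 34.5% and 35.4% at 24 h. In the comparison of KO and WT at 0 h 10 of the 12 passed the filter. A gene that passed only through LPS-treated groups had to rise. Il15ra, the IL-15 receptor, rose by 4.90 ± 0.12 at 3 h (edgeR adjusted p = 1.95e-21) and Il13ra1, a chain of the IL-4 and IL-13 receptor, by 2.21 ± 0.15. At 24 h the IL-12 receptor chains parted, with Il12rb1 up by 4.84 ± 0.22 and Il12rb2 down by 1.97 ± 0.21. Il7r fell by 0.56 ± 0.090 log2 at 3 h and by 0.25 ± 0.089 at 24 h, the latter lost without WT replicate 1 (adjusted p = 0.119). Csf2ra, the GM-CSF receptor, was up by 0.26 ± 0.084 at 3 h, a call lost without WT replicate 3 (adjusted p = 0.0662) and of opposite sign without TMM factors (−0.10).

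Of the 16 ligands 8 passed the filter in the LPS fit of WT, and 7 of these rose in WT at 3 h and at 24 h. Of all genes 26.6% and 34.5% were higher at these times. In the comparison of KO and WT at 0 h 3 ligands passed, and a gene that passed only through LPS-treated groups had to rise. The number that rose is therefore no result about the ligands. At 6 h 7 rose and 1 fell. Il6 had 6 counts in the 4 untreated WT libraries and lay at 281 ± 9.70 CPM at 3 h (SD, n = 4), and Il12b, an IL-12 subunit, had 10 counts and then 316 ± 40.9 CPM. Il15 rose by 4.97 ± 0.14 log2 at 3 h (SE; edgeR adjusted p = 2.12e-20) and Ebi3, an IL-27 subunit, by 1.52 ± 0.17. Il4 and Il13, the ligands upstream of STAT6, did not pass the filter. Of the 17 negative regulators LPS raised 8 and lowered 3 in WT by 3 h, and raised 11 and lowered 3 by 24 h. These shares of called genes are near the 54.6% and 69.9% of all genes. Socs3, an inhibitor of gp130 signalling, went from 3.69 ± 0.703 CPM to 646 ± 53.0 CPM at 3 h and was still at 141 ± 28.8 CPM at 24 h. Usp18, which shuts off the type I interferon receptor, was 6.16 ± 0.14 log2 above 0 h at 24 h (edgeR adjusted p = 4.24e-22). Socs6 fell by 0.80 ± 0.083 and Pias3, an inhibitor of STAT3, by 0.76 ± 0.14 at 3 h, and Socs5 fell by 0.94 ± 0.18 at 24 h.

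**Figure D4:**
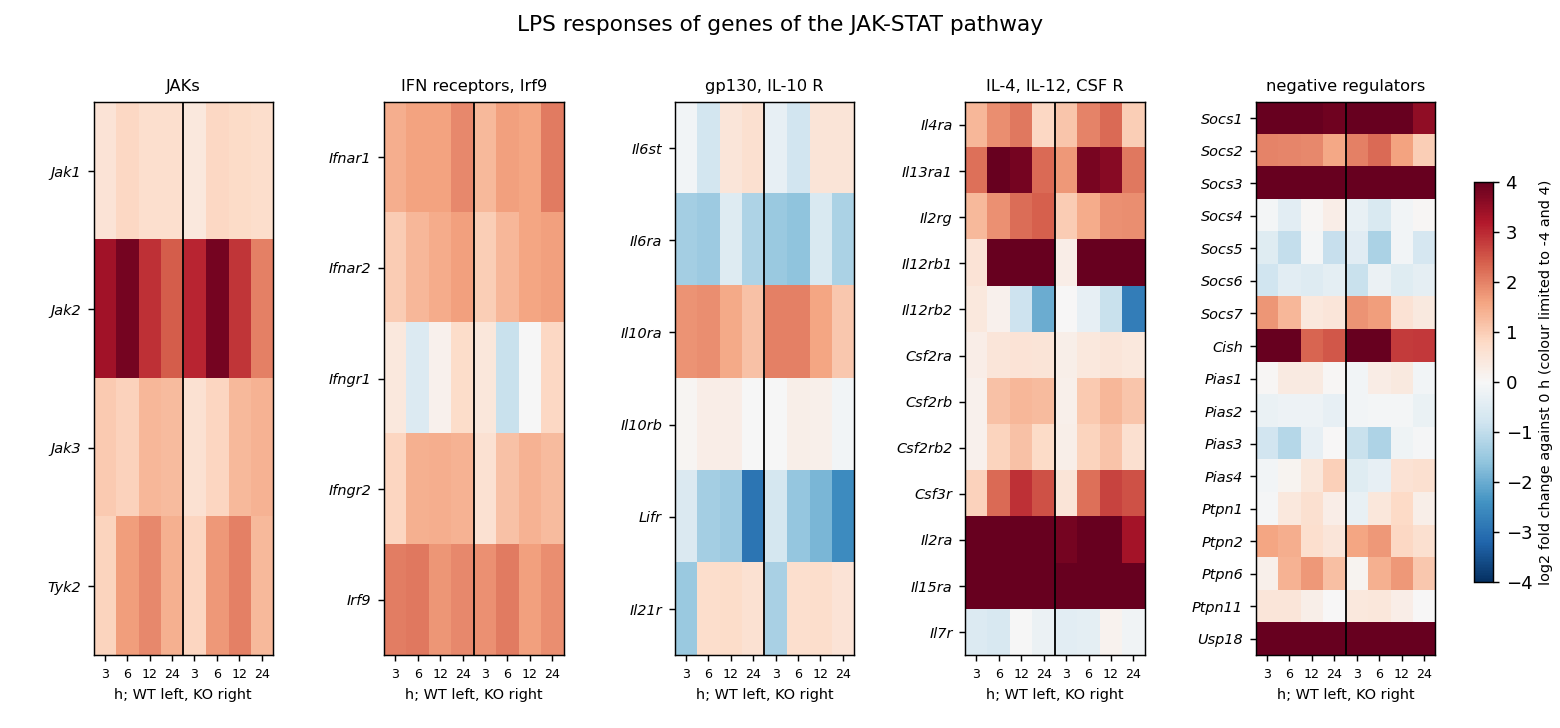
Log2 fold change against 0 h (colour, limited to −4 and 4, red higher and blue lower) of the tested genes of 5 pathway lists, with 1 row per gene. In each panel columns 3, 6, 12 and 24 h are WT left of the black line and KO right of it. Jak2 (3.36 at 3 h in WT), Socs3 and Usp18 are red throughout, Il6ra is blue throughout, and WT and KO columns look alike.

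Known targets of the STATs were read from lists that were chosen with results of these data known. All 10 targets of the STAT2 complex rose in WT and KO at 3 and 24 h, from 4.63 ± 0.16 log2 for Oasl2 to 8.22 ± 0.22 for Mx2 at 3 h in WT (SE), both antiviral proteins. All 8 STAT3 targets rose at both times, among them Il1rn, which encodes the IL-1 receptor antagonist (3.45 ± 0.18 at 3 h and 4.21 ± 0.18 at 24 h). Mcl1, a survival factor, rose by 0.69 ± 0.090 and 1.03 ± 0.090 log2. Il4ra rose by 1.33 log2 at 3 h and by 0.83 at 24 h, and the later call was lost without WT replicate 2 (adjusted p = 0.0838) or 3 (adjusted p = 0.0856). Beside the STAT2 and STAT3 targets, 26.6% of all genes were higher at 3 h and 34.5% at 24 h in WT. In the comparison of KO and WT at 0 h 8 of the 10 STAT2 complex targets passed the filter. A gene that passed only through LPS-treated groups had to rise. Of 6 STAT5 targets 3 rose, 1 fell and 2 did not pass the test at 3 h in WT, a called share near the 54.6% of all genes. Cish, a feedback inhibitor induced by STAT5, had 14 counts in the 4 untreated WT libraries, lay at 108 ± 10.3 CPM at 3 h (SD, n = 4), and fell to 11.6 ± 2.19 CPM at 6 h. Stat5a, at 145 ± 17.1 CPM at 3 h and 60.2 ± 4.05 CPM at 6 h in the same libraries, was thus also highest at 3 h. Pim1, a kinase, and Socs2 rose by 3.21 ± 0.11 and 2.00 ± 0.22 log2 at 3 h, and Id1, an inhibitor of basic helix-loop-helix factors, fell by 2.76 ± 0.20.

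Of 9 STAT6 targets 6 passed the filter in WT, of which LPS raised 2 and lowered 0 by 3 h, and raised 0 and lowered 4 by 24 h. Of all genes 54.6% were called at 3 h and 69.9% at 24 h, so the number of called STAT6 targets is no result about the list. At 24 h Egr2, a transcription factor induced by IL-4, was at −3.83 ± 0.29 log2 (SE; edgeR adjusted p = 4.19e-11), and Clec10a, a lectin of alternatively activated macrophages, at −3.07 ± 0.17. Mrc1, the mannose receptor, was at −2.99 ± 0.15 and Tgm2, a transglutaminase, at −1.43 ± 0.081. Stat6 itself was 0.26 log2 above 0 h at that time. At 3 h the rises of Tgm2 (0.49 ± 0.076) and of the chemokine gene Ccl24 (1.31 log2) were lost without TMM factors (adjusted p = 0.0983 and 0.116), and that of Ccl24 also without WT replicate 1 (adjusted p = 0.0994) or 2 (adjusted p = 0.135).

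Between genotypes, KO and WT were compared within each time, 4 against 4 libraries. Of the 6 STAT genes 0 were called at 0, 3, 6, 12 or 24 h by edgeR or by DESeq2, and Stat4 did not pass the filter at 12 h. Among all genes edgeR called 0% of 11734 at 0 h, 0.689% of 11035 at 3 h, 1.01% of 10518 at 6 h, 0.0464% of 10783 at 12 h and 0.0809% of 11122 at 24 h. At an unadjusted p under 0.05 there were 0, 2, 0, 0 and 1 STAT genes. Leaving out 1 library moved the count of called genes between 0 and 18 at 0 h, 18 (without WT replicate 2) and 160 (without KO replicate 1) at 3 h, 37 (without KO replicate 1) and 148 (without WT replicate 1) at 6 h, 0 and 18 (without KO replicate 4) at 12 h, and 0 and 20 (without KO replicate 4) at 24 h. The count of STAT genes stayed at 0 in each of these.

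The smallest p among the STAT genes belonged to Stat2 at 24 h, where the KO libraries (286 to 368 CPM) lay below all WT libraries (373 to 430 CPM). The difference was −0.31 ± 0.086 log2 (SE; 95% interval −0.49 to −0.13), with an unadjusted p of 0.00263 and an edgeR adjusted p of 0.244. The adjusted p ran from 0.0560 to 0.611 over the alternatives tried. Marker sums moved with it. At 24 h every KO library was below every WT library for the summed 8 macrophage markers (5523 to 5963 against 5992 to 7686 CPM) and 9 neutrophil markers (18.8 to 27.3 against 32.9 to 45.1 CPM). Lyz2, with 1591 to 3605 CPM over all libraries, held much of the macrophage sum, and S100a8 and S100a9 held most of the neutrophil sum. Of the 8 macrophage markers 1, Lyz2, was called at 24 h, and their median log2 difference was −0.006. The part of these markers in the Stat2 difference was not tested. At 3 h Stat5a was at −0.22 ± 0.090 (interval −0.41 to −0.03, edgeR adjusted p = 0.344) and Stat5b at −0.20 ± 0.086 (interval −0.38 to −0.01, adjusted p = 0.386). At 6 h Stat3 was at 0.09 ± 0.074 (interval −0.07 to 0.25), and Stat6 at −0.21 ± 0.11 (interval −0.44 to 0.02, edgeR adjusted p = 0.464). Stat4 was lower in KO in each of the 4 fits that tested it, between −0.20 and −0.60 log2, with the widest intervals of the 6 genes (−1.27 to 0.06 at 6 h). Of the 30 pairs of gene and time, 2 showed no overlap between the genotypes, Stat2 at 24 h and Stat5a at 12 h (KO libraries 29.3 to 33.0 CPM, WT libraries 27.3 to 28.5 CPM), and in 17 the KO mean was the lower. These p-values do not show that the genotypes were alike, and the intervals bound the differences that remain possible.

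**Figure D5:**
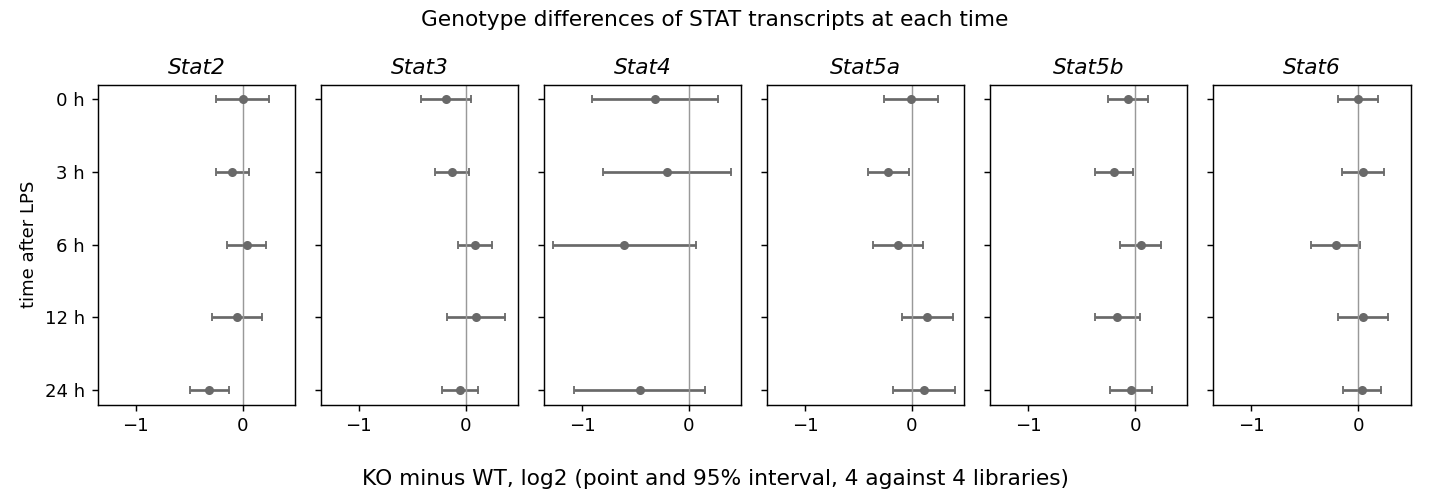
Log2 difference KO minus WT (horizontal axis) of each STAT gene at 0, 3, 6, 12 and 24 h (vertical axis), with edgeR's estimate as a point and its 95% interval as a bar, 4 against 4 libraries. Stat2 at 24 h (−0.31, interval −0.49 to −0.13) lies farthest from 0 relative to its interval, Stat4 has the widest intervals, and Stat4 at 12 h was not tested.

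The test of whether LPS changed a STAT gene differently in KO and WT called 0 of 6 at each time by edgeR and by DESeq2, against 0% of 12165 genes at 3 h, 0% of 12096 at 6 h, 0% of 12164 at 12 h and 0.00818% of 12226 at 24 h. The smallest unadjusted p was again that of Stat2 at 24 h, with a difference of −0.31 ± 0.14 log2 (SE; interval −0.61 to −0.02, unadjusted p = 0.0386, edgeR adjusted p = 0.9998). This was the only STAT value under an unadjusted p of 0.05 in the 4 comparisons. Stat3 at 6 h was at 0.28 ± 0.14 (interval −0.01 to 0.57, unadjusted p = 0.0542).

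Around the STATs, 10 genes of the pathway lists were called between KO and WT. They were 2 of 74 list genes tested at 3 h, 7 of 73 at 6 h and 1 of 73 at 24 h. These are 2.7%, 9.59% and 1.37%, against 0.689%, 1.01% and 0.0809% of all genes. The lists were chosen with earlier results of these data known, so the higher shares are no result about the lists. At 3 h Osm, which encodes oncostatin M, was higher in KO by 0.53 ± 0.11 log2 (SE; edgeR adjusted p = 0.0362) and Nfil3, a transcription factor, by 0.67 ± 0.13 (adjusted p = 0.0231). At 6 h the interferon-induced genes Oasl1, Ifit1 and Cmpk2 were higher in KO by 0.52 ± 0.094, 0.38 ± 0.084 and 0.34 ± 0.069 (edgeR adjusted p = 0.0117, 0.0415 and 0.0217), while Stat2 was at 0.04 ± 0.086 (adjusted p = 0.916). At the same time Socs1, an inhibitor of JAKs, was higher by 0.50 ± 0.089 (adjusted p = 0.0115), Il7r by 0.42 ± 0.070 (adjusted p = 0.00532) and Il13ra1 by 0.40 ± 0.078 (adjusted p = 0.0178), and Ifngr1 was lower by −0.39 ± 0.089 (adjusted p = 0.0433). At 24 h Il1rn was higher by 0.46 ± 0.076 (adjusted p = 0.0387). The calls of Oasl1 and Il7r held when each of the 8 libraries was left out in turn. That of Socs1 was lost in 1 case (without WT replicate 2, adjusted p = 0.0505), those of Cmpk2 and Il13ra1 in 4, Nfil3 in 5, Ifit1 in 6, and Osm, Ifngr1 and Il1rn in 7 (highest adjusted p = 0.160). In the edgeR fit of all 40 libraries the calls of Nfil3, Socs1, Il1rn, Ifit1, Osm and Cmpk2 were lost (adjusted p = 0.0866, 0.0873, 0.262, 0.375, 0.460 and 0.469). A replicate block ended those of Il13ra1, Cmpk2, Ifngr1, Nfil3, Osm and Il1rn (edgeR adjusted p = 0.0574, 0.0611, 0.0762, 0.0819, 0.0831 and 0.104).

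Some genes of the cell type marker lists also differed between the genotypes at these times, and their part in the differences above was not tested. The neutrophil markers summed to 30.5 to 43.5 CPM in the 4 KO libraries at 3 h against 57.0 to 71.7 CPM in the 4 WT libraries, and at 6 h to 30.4 to 56.9 against 59.7 to 79.8 CPM. Over all 40 libraries S100a8 and S100a9 had 4914 and 2301 counts and the next neutrophil gene, Ngp, 314. The sum thus mostly follows S100a8 and S100a9. The macrophage markers summed to 5738 to 6151 CPM in KO at 6 h against 6279 to 6712 CPM in WT, without overlap, and at 3 h the groups overlapped. At 6 h 1 of the 8 macrophage markers, Lyz2, was called, and the median log2 difference over the 8 was 0.07. Lyz2 held much of the macrophage sum, so the sum does not stand for all 8 markers. Of the single markers, 3 were called, all lower in KO. Lyz2, the LysM gene whose promoter drives Cre here, was at −0.47 ± 0.094 log2 at 3 h, −0.44 ± 0.075 at 6 h and −0.59 ± 0.10 at 24 h (SE; edgeR adjusted p = 0.0258, 0.00752 and 0.0387). For Lyz2 a difference in cell type cannot be told apart from the presence of Cre. S100a8 was at −0.76 ± 0.11 at 3 h (adjusted p = 0.00526), and S100a9 at −1.08 ± 0.17 at 3 h and −1.31 ± 0.22 at 24 h (adjusted p = 0.00526 and 0.0387), both subunits of calprotectin. When each of the 8 libraries was left out in turn, the calls at 3 h of S100a8 and S100a9 and that of Lyz2 at 6 h held, Lyz2 lost its call in 5 cases at 3 h and in 5 at 24 h, and S100a9 in 7 at 24 h (highest adjusted p = 0.145). In the edgeR fit of all 40 libraries Lyz2 lost its calls at 3 and 6 h (adjusted p = 0.0777 and 0.0728). A replicate block ended the calls of Lyz2 at 3 and 24 h and of S100a9 at 24 h (edgeR adjusted p = 0.188, 0.135 and 0.172).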

How the data were processed

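RNA was counted in 40 libraries. The table deposited by the authors gives expected counts for each Ensembl identifier, without normalization. All were whole numbers, so rounding changed nothing. The submitters' processing notes name STAR 2.7.10a, RSEM 1.3.3, UMI-tools 1.1.2, FastQC 0.11.9, cutadapt 3.7 and the build GRCm39. The sources used here do not give the annotation, the strand setting or any collapsing of molecular identifiers. Symbols came from GENCODE vM21 (52029 of 57010 identifiers) and promoters from RefSeq (GRCm38.p6), matched by symbol.

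Tests used edgeR 4.0.16 in R 4.3.3: TMM, filterByExpr (minimum count 10), and robust quasi-likelihood tests, with p adjusted by Benjamini-Hochberg over all genes tested and called under 0.05. KO and WT were compared in 8 libraries per time, LPS in 20 libraries per genotype, and the difference of responses in 16 libraries. SE is the absolute log2 fold change divided by the root of F. All tests are two-sided. Alternatives were other size factors, no filter, DESeq2 1.42.0, a replicate block, 1 replicate number of a genotype left out, and 1 fit of 40 libraries. A further alternative, chosen after seeing the data, was no scaling factors. Leaving out a replicate number removed 1 library from a comparison of KO and WT. In an LPS fit it removed that number's library at every time, and in a difference of responses those at 0 h and the later time. From each pathway list the text names genes called between KO and WT, and from the 2 highest and 2 lowest called changes in WT at 3 and 24 h. Il4, Il13, Csf1r and other markers were named after their values were seen. The members and lists were chosen with earlier results of these data known.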

Additional observations from a re-analysis of the deposited data

Results flagged for a closer look

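The check covered 70 groups of 4 libraries (6 STAT genes and the Stat5a to Stat5b ratio in 10 groups). Of these, 2 held a library standing apart from the other 3, both for Stat2. Chance flags about 1 in 20 groups. In KO at 6 h the highest library, replicate 4, lay at 477 CPM and the others at 374 to 385 CPM. In WT at 12 h the highest library, replicate 2, lay at 523 CPM and the others at 429 to 444 CPM. Both libraries were kept in every value above except those given with a replicate left out. The WT step of Stat2 from 6 to 12 h was lost when WT replicate 2 was left out at every time.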

How the results depend on the processing

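Of 1582 STAT values under the alternatives, 1500 kept their call and direction or, where uncalled, moved by less than 1 SE, and 67 uncalled values changed sign. Only without scaling factors did a called value reverse: Stat6 in WT at 24 h (−0.039), Stat5b in KO at 12 h (−0.026) and Csf2ra in WT at 3 h (−0.10). That setting called 3 STAT genes at 24 h in WT and in KO, and 5 in the WT step from 3 to 6 h. Leaving out 1 replicate number at every time gave 2 to 4 STAT genes for the WT step from 6 to 12 h and 2 to 3 for that of KO.

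The counts over all genes moved more, and the cause was not tested. For KO against WT at 0, 3, 6, 12 and 24 h, 177, 359, 344, 158 and 163 genes were called with no filter, and 27, 147, 183, 57 and 56 by DESeq2. One fit of all 40 libraries called 9, 35, 125 and 32 at 0, 3, 12 and 24 h, and 2 were called at 12 h without scaling factors. Leaving out 1 library gave 0 to 18, 18 to 160, 37 to 148, 0 to 18 and 0 to 20. For the difference of LPS responses at 3, 6, 12 and 24 h, no filter called 4, 11, 40 and 5 genes, DESeq2 called 2, 11 and 1 at 3, 6 and 12 h, and the fit of all 40 libraries 2 at 24 h. Leaving out 1 replicate number of a genotype, at 0 h and the later time, gave 0 to 4 at 6 h, 0 to 1 at 12 h and 0 to 1 at 24 h. No STAT gene was called between genotypes in any of these.

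The labels number replicates 1 to 4 in every group without saying that a number marks an animal. Deviations of same-numbered libraries at different times correlated above 0.1 in 22 of 40 pairs in WT and 23 of 40 in KO. Their median r was 0.104 in WT and 0.113 in KO, against −0.038 and −0.047 for pairs with unlike numbers. Of same-numbered KO and WT pairs, 1 of 4 exceeded 0.1 at 0 h and 0 of 4 at later times. The numbers are thus not shown to pair KO with WT samples. Within a genotype same-numbered libraries were more alike by the median, and the main LPS fits did not use the number. With the number as a replicate block, 5, 26, 0 and 0 genes were called between KO and WT at 0, 3, 12 and 24 h, and 0 for the difference of responses at 24 h.

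Depth limits Stat4 most, at 6 to 34 counts a library. Without scaling factors the steps split into 1706 higher and 3923 lower (WT, 3 to 6 h; 2481 and 2658 with TMM), 3440 and 2144 (6 to 12 h; 2706 and 2840) and 3152 and 1852 (12 to 24 h; 2317 and 2493). In KO they split into 1494 and 4424, 3551 and 1912, and 3263 and 1640 (2282 and 2603, 2737 and 2654, and 2176 and 2260 with TMM).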
